A study of Homo sapiens with 12 samples.

Results

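IMR32 cells in which MYCN and HAND2 were knocked down together were compared with IMR32 cells given a control siRNA, across all genes of the deposited table. The comparison was chosen by sample label: 3 libraries labelled with both siRNAs (siMYCN_2 and siHAND2_3, here the combined knockdown) and 3 labelled siCTR (here siCtrl), 6 of the 12 libraries of the series. IMR32 is an established human neuroblastoma line that carries many extra copies of MYCN. In all 12 libraries siRNA had been delivered by electroporation, and total RNA was taken 72 h later from cells kept in ordinary growth medium. The other 6 libraries held 3 of siMYCN_2 alone (siMYCN) and 3 of siHAND2_3 alone (siHAND2). Each gene was targeted by 1 siRNA in these libraries, so an effect of the targeted gene and an off-target effect of its siRNA cannot be told apart, and the labels give no siRNA amount. The labels number the replicates but do not say whether they were separate cultures. The limma p-values therefore measure only the spread between samples within groups, pooled over all 12 libraries.

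Neuroblastoma arises from sympathoadrenal cells of the neural crest. MYCN is a basic helix-loop-helix transcription factor of the MYC family that, with its partner MAX, binds E-box sequences and is known for driving ribosome production, metabolism and cell division. HAND2 is a basic helix-loop-helix factor of sympathetic neuron development that, with GATA3 and ISL1, belongs to the adrenergic core regulatory circuit of neuroblastoma. The questions addressed were which programmes were lower and which were higher when both factors were reduced, and where the combined knockdown differed from each single one.

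Values were CPM (read counts scaled to a common library total) for 27514 genes, of which 12680 had a mean of at least 1 CPM over the 12 samples and were tested with limma on log2(CPM + 1). A gene was called where the Benjamini-Hochberg adjusted p was under 0.05. Estimated depth was 36.3 to 57.4 M reads per siCtrl library and 38.6 to 64.2 M per combined library. Of all reads, 65.8%, 64.3% and 65.2% fell in listed genes in siCtrl, against 58.4%, 51.4% and 44.3% in the combined knockdown. These groups did not overlap, with means of 65.1 ± 0.736% and 51.4 ± 7.04% (SD, n = 3 each), and the 2-sided exact permutation p was 0.1, the smallest that 3 against 3 can give. Combined replicate 3 had the lowest share. What the remaining reads were is not given in the sources used here. Because a lower share lowers the CPM of every listed gene alike, each result is given as deposited and after median-ratio rescaling, in which a sample is scaled by the median, over genes, of its ratio to a geometric-mean reference sample (rescaled). A bulk library cannot separate fewer cells of a kind from less RNA per cell, and total RNA per cell was not measured on either scale.

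MYCN (chr2:16080560-16087130, GRCh37) was at 964, 1049 and 1015 CPM in siCtrl and at 555, 458 and 433 CPM in the combined knockdown. All 3 combined libraries lay under all 3 siCtrl libraries, and the log2 fold change was -1.07 ± 0.12 (SE, limma adjusted p = 1.3e-08), or -0.71 after rescaling. HAND2 (chr4:174447652-174451379, GRCh37) was at 224, 241 and 254 CPM in siCtrl and at 86.3, 67.1 and 67.2 CPM in the combined knockdown. Its log2 fold change was -1.70 ± 0.12 (SE, limma adjusted p = 5.8e-12), or -1.34 after rescaling. MYCN thus kept 47.7% and HAND2 30.7% of the siCtrl mean as deposited, and 61% and 39.2% after rescaling. In the cells given siHAND2 alone MYCN was at 899, 844 and 802 CPM, and in those given siMYCN alone HAND2 was at 324, 319 and 334 CPM, above all siCtrl libraries. Set against the single knockdowns, both calls depended on the scale. MYCN in the combined libraries was lower than in siMYCN as deposited (log2 difference -0.51, limma adjusted p = 0.0007) and not called after rescaling (-0.16, limma adjusted p = 0.054). HAND2 was not called against siHAND2 as deposited (0.23, limma adjusted p = 0.13) and was higher after rescaling (0.43, limma adjusted p = 0.0016). Both genes overlap an antisense transcript in the table (MYCNOS and HAND2-AS1), and whether the counting used strand is not given in the sources used here.

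**Figure D1:**
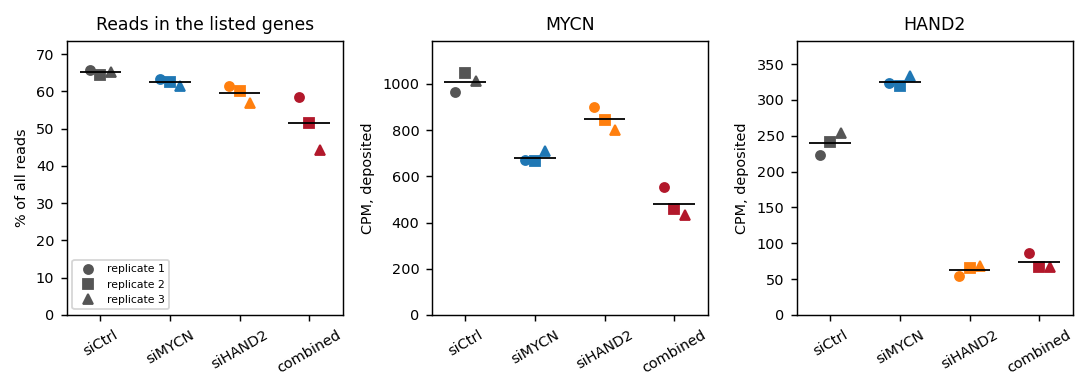
Share of all reads that fell in listed genes (left, %), and deposited CPM of MYCN (middle) and HAND2 (right), for each library of the 4 groups; points are libraries, shapes are replicate numbers and black lines are group means. The 3 combined libraries sit at 44.3 to 58.4% of reads in listed genes, under the 64.3 to 65.8% of siCtrl, and both targeted genes lie under siCtrl in each of them.

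The labelled cell type was checked with 11 defining genes of sympathoadrenal neuroblastoma. Of these, 10 were at 1 CPM or more in siCtrl, with MYCN and HAND2 among them, while TH, the rate-limiting enzyme of catecholamine synthesis, was at only 0.12 CPM and DBH, which makes noradrenaline, at 2.65 CPM. Summed markers of immune and epithelial cells stayed under 1 CPM in all 6 libraries, and those of endothelial cells at 0.606 to 0.89 CPM in siCtrl and 1.19 to 1.95 CPM in the combined knockdown. Schwann cell markers summed to 1.79 to 1.87 CPM in siCtrl and 2.83 to 3.57 CPM in the combined knockdown. Fibroblast markers summed to 129 to 138 CPM in siCtrl, mostly PDGFRA at 104 CPM, with DCN at 0, and to 39 to 60.9 CPM in the combined knockdown.

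When both factors were reduced, genes of ribosome assembly, nucleotide synthesis, DNA replication and mitosis fell together on both scales, and genes of axon growth and synaptic release rose. Cytosolic ribosomal proteins and respiratory chain genes had medians close to that of all tested genes. As deposited, 8551 of 12680 genes were called (67.4%), 2200 higher (17.4%) and 6351 lower (50.1%), with a median log2 fold change over all tested genes of -0.28. After rescaling 8962 were called (70.7%), 4776 higher (37.7%) and 4186 lower (33%), with a median of 0.04. All 2200 genes called higher as deposited were also higher after rescaling, and all 4186 called lower after rescaling were also lower as deposited. The scale decided the call for 2165 genes that were lower as deposited and not called after rescaling, and for 2576 that were higher only after rescaling. No gene was called in opposite directions. The 3 combined libraries lay above all 3 siCtrl libraries in 16.7% of genes and under them in 48.3% as deposited, and in 37.4% and 32.9% after rescaling. Without combined replicate 3 the deposited counts were 2831 higher and 5786 lower, and the rescaled counts were 4578 and 4132. Among called genes that also moved by at least 1 on the log2 scale, 528 were higher (4.16%) and 1582 lower (12.5%) as deposited, against 949 (7.48%) and 778 (6.14%) after rescaling, so which side held more of the large changes also depended on the scale. Below, a gene is said to have risen or fallen where it was called that way on both scales, and the rest are given with their scale. Counts for gene lists are to be read beside the shares over all tested genes given here, and no list was tested against them.

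**Figure D2:**
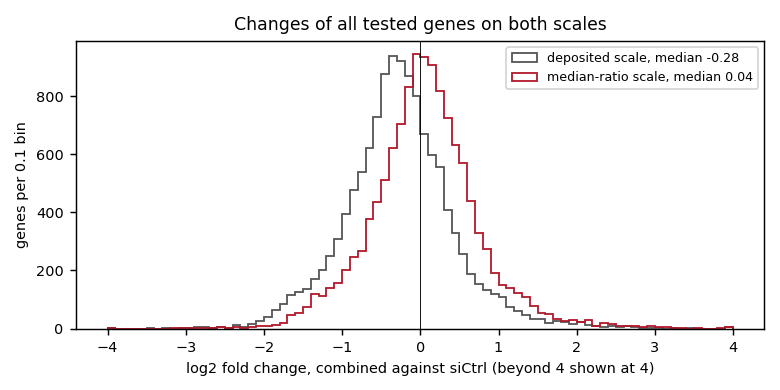
Distribution of log2 fold changes (combined against siCtrl, horizontal axis) over the 12680 tested genes (genes per bin, vertical axis) on the deposited and the median-ratio scale. The deposited distribution is centred at -0.28 and the rescaled one at 0.04.

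Genes for the machinery that builds ribosomes fell almost as a block. Of 50 genes of ribosome biogenesis and RNA polymerase I, all 50 were called lower as deposited and 48 after rescaling, with none higher and a median log2 fold change of -1.36 and -1.03 (all tested genes, -0.28 and 0.04). UTP20, a component of the small-subunit processome, went from 143, 145 and 124 CPM to 35, 36 and 29 CPM. The log2 fold change was -2.01 ± 0.12 (SE, limma adjusted p = 1.4e-13), leaving 24.3% of the siCtrl level as deposited and 31.1% after rescaling. RRP9, which binds the U3 snoRNA, went from 41.5, 40.8 and 42.3 CPM to 13.9, 11.1 and 8.78 CPM (limma adjusted p = 2.3e-12). DKC1, the pseudouridine synthase of H/ACA ribonucleoproteins, went from 113, 110 and 106 CPM to 40.4, 31.3 and 26.2 CPM (limma adjusted p = 5.8e-12). None of these groups of 3 overlapped. Together the 50 genes held 0.939 ± 0.011% of all listed-gene CPM in siCtrl and 0.469 ± 0.014% in the combined knockdown (SD, n = 3 each), a share that does not depend on the scale.

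Genes for the ribosome's own proteins behaved differently from those for the factors that assemble it. Of 79 cytosolic ribosomal proteins, 53 were lower as deposited and none higher, but after rescaling 13 were lower and 11 higher, with medians of -0.37 and -0.01. Leaving out combined replicate 3 gave 25 lower and 5 higher on the rescaled values, and leaving out siCtrl replicate 1 or 2 gave 6 or 4 higher, so the split between directions rested on single libraries. Their share of listed-gene CPM was 9.02 ± 0.62% in siCtrl and 8.77 ± 1.1% in the combined knockdown (SD, n = 3 each). RPS2 and RPL35 did fall. RPS2 went from 1578, 1543 and 1705 CPM to 973, 870 and 711 CPM (log2 fold change -0.93, limma adjusted p = 2.5e-07), and RPL35 from 457, 387 and 463 CPM to 249, 197 and 220 CPM (-0.97, limma adjusted p = 8.2e-08). Of 76 mitochondrial ribosomal proteins, 70 were lower as deposited and 48 after rescaling, with 0 and 2 higher. MRPL11 stood at 49, 44.2 and 53.6 CPM in siCtrl and at 20.1, 16.3 and 15 CPM in the combined knockdown, and MRPL12 at 43.5, 44.3 and 43.2 CPM against 18.7, 17.5 and 14.9 CPM.

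Most genes for the other components of protein synthesis fell as well. Of 39 translation initiation factors and related proteins, 32 were lower and 1 higher as deposited, and 28 lower and 2 higher after rescaling. EIF5A, the hypusine-carrying translation factor, went from 321, 309 and 311 CPM to 135, 116 and 90.6 CPM (log2 fold change -1.47, limma adjusted p = 1.9e-10), and PABPC1, the cytoplasmic poly(A)-binding protein, kept 41.5% of its siCtrl level as deposited and 53% after rescaling. The exception was EIF4A2, a helicase paralog of EIF4A1, which rose from 204, 180 and 198 CPM to 376, 286 and 285 CPM (log2 fold change 0.69, limma adjusted p = 1.9e-05; 1.05 after rescaling). EIF4A2 hosts several small RNAs and its reads may include theirs. Of 20 cytosolic aminoacyl tRNA synthetases, 17 were lower and 0 higher as deposited, and 16 lower and 3 higher after rescaling, with FARSB at 35.7% and IARS at 43.6% of the siCtrl mean as deposited. All 10 chaperonin genes were lower on both scales. HSPD1, the mitochondrial chaperonin, went from 998, 976 and 976 CPM to 355, 283 and 236 CPM (log2 fold change -1.77, limma adjusted p = 5.3e-12), and its partner HSPE1, transcribed from the same region on the other strand, from 173, 160 and 172 CPM to 61.5, 50.6 and 57.3 CPM.

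RNA of nucleotide synthesis genes fell without exception among those listed. All 31 genes of nucleotide and one-carbon synthesis were called lower on both scales, with medians of -1.43 and -1.07, and their share of listed-gene CPM went from 0.501 ± 0.0098% to 0.228 ± 0.0085% (SD, n = 3 each). PRPS2 makes phosphoribosyl pyrophosphate, the sugar donor of all nucleotides. It went from 35.5, 37 and 37.2 CPM to 8.56, 6.76 and 4.78 CPM, and the log2 fold change was -2.32 ± 0.13 (SE, adjusted p = 9.1e-14 by limma). MTHFD1, a folate enzyme, went from 147, 135 and 125 CPM to 34.6, 32.2 and 24.6 CPM (limma adjusted p = 1.6e-13), and PAICS, of the purine pathway, from 266, 269 and 254 CPM to 73.8, 60.3 and 53.3 CPM (limma adjusted p = 1.6e-13). TYMS, which makes thymidylate, kept 24% of its siCtrl level as deposited and 30.8% after rescaling. In all of these the 2 groups stood well apart.

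Amino acid and polyamine genes were mixed around a lower majority. Of 16 amino acid transporters tested, 10 were lower and 1 higher as deposited, and 9 lower and 2 higher after rescaling (2 higher as deposited without siCtrl replicate 1 or combined replicate 3, and 4 after rescaling without combined replicate 3). A glutamine carrier, SLC38A5, and a cationic amino acid carrier, SLC7A2, were among the largest falls of the whole comparison. SLC38A5 went from 41.9, 40.8 and 44.1 CPM to 6.11, 5.05 and 4.02 CPM, and SLC7A2 from 38.8, 39.8 and 37.1 CPM to 4.89, 5.23 and 4.05 CPM. Their log2 fold changes were -2.85 (limma adjusted p = 5.4e-16) and -2.79 (limma adjusted p = 3.3e-16). SLC43A2, a transporter of large neutral amino acids, rose 2.38-fold as deposited. Of 12 polyamine genes, 8 were lower and 2 higher as deposited (1 higher without any 1 siCtrl library or without combined replicate 1 or 2), and 6 lower and 4 higher after rescaling. ODC1, the first enzyme of the pathway, went from 370, 366 and 387 CPM to 159, 126 and 107 CPM (log2 fold change -1.53, limma adjusted p = 5.5e-11), and AMD1 and SRM, which carry the pathway on, kept 41.4% and 40.9% of the siCtrl level.

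An E-box, CACGTG, the sequence that MYC family proteins and several other helix-loop-helix factors bind, was searched for in the 300 bases around each start site (250 before, 50 after). The word is its own reverse complement, so a match covers both strands. It was present in 7.43% of all promoters of the RefSeq table (GRCh38.p14), in 10.5% of those of 10121 tested genes with an entry, in 12.2% of genes that fell and in 7.29% of genes that rose. In ribosome biogenesis 15 of 42 promoters held it (35.7%), in nucleotide synthesis 6 of 26 (23.1%) and in cytosolic ribosomal proteins 3 of 63 (4.76%). Other lists with a lower majority varied. It was in 8 of 31 promoters of initiation factors (25.8%), 7 of 43 of DNA replication (16.3%) and 5 of 39 of mitosis (12.8%). Recombination and Fanconi genes had it in 2 of 23 (8.7%), the proteasome in 1 of 26 (3.85%) and splicing factors in 1 of 40 (2.5%). It was also present in 9 of 28 lysosomal and autophagy promoters (32.1%), a list with more members higher than lower. A second E-box, CATCTG with its reverse complement CAGATG, was in 14.8% of all promoters of the RefSeq table. It was in 8.96% of all tested genes with an entry, 8.35% of those that fell and 12.1% of those that rose. A match describes the letters in the window, not occupancy by a factor. The 250 bases before the start are printed for 3 genes that fell, from ribosome biogenesis, folate metabolism and glycolysis, and 1 that rose, from the stress response, since all 4 hold the word and so show it on both sides of the comparison. Capitals mark CACGTG. The first base of the word lies at -10 in UTP20 (chr12:101279855-101280104, + strand), at -15 in MTHFD1 (chr14:64388103-64388352, + strand), at -185 and -87 in LDHA (chr11:18394313-18394562, + strand) and at -159 in HERPUD1 (chr16:56931892-56932141, + strand), counted from the start site in GRCh38.p14.
UTP20: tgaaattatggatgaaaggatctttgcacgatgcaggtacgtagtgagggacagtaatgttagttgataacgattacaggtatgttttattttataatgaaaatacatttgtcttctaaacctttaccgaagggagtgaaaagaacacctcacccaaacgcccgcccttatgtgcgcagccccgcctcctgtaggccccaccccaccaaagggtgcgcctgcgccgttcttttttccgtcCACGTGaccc
MTHFD1: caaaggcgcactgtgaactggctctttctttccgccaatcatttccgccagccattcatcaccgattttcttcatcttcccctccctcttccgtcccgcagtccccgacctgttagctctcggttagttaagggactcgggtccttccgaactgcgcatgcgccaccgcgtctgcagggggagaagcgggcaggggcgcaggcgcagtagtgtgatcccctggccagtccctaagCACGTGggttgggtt
LDHA: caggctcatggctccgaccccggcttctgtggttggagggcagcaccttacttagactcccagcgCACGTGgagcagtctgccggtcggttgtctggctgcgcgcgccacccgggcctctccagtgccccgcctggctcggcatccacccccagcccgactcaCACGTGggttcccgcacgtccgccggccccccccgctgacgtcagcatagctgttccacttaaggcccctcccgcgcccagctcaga
HERPUD1: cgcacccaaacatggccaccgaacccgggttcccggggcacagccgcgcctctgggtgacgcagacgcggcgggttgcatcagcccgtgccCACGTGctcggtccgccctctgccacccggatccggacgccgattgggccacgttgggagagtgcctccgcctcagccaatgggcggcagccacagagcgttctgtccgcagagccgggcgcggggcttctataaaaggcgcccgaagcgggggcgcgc

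Mitosis and DNA replication had the lowest medians of the lists tested. Of 50 DNA replication genes, 49 were lower on each scale, with medians of -1.62 and -1.30, and 1 was higher after rescaling. Of 46 mitosis genes, 46 were lower as deposited and 45 after rescaling, with medians of -1.67 and -1.31 and none higher. ORC1, the largest subunit of the origin recognition complex, went from 69, 69.8 and 67.1 CPM to 15.2, 12.5 and 9.99 CPM, and the log2 fold change was -2.38 ± 0.12 (SE, adjusted p = 1.8e-14 by limma). CDC6, which loads the replicative helicase, went from 90.3, 87.1 and 93.3 CPM to 23.6, 18.6 and 16.8 CPM, and MCM4, a subunit of that helicase, from 246, 243 and 234 CPM to 65.9, 54.5 and 45.1 CPM. Mitotic genes fell to a like extent: AURKB, the Aurora kinase of the chromosomal passenger complex, went from 57.4, 53.2 and 52.2 CPM to 15.8, 13.5 and 10.8 CPM, and BIRC5, another member of that complex, from 202, 184 and 210 CPM to 63.1, 51 and 47.7 CPM. KIF23, a kinesin of the central spindle, kept 24.7% and BUB1B, of the spindle checkpoint, 26% of the siCtrl level as deposited. Replication genes held 0.646 ± 0.005% of listed-gene CPM in siCtrl and 0.256 ± 0.008% in the combined knockdown, and mitosis genes 0.805 ± 0.018% and 0.337 ± 0.016% (SD, n = 3 each).

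Genes of G1 control and of repair by recombination moved the same way. Of 11 G1 cyclins, kinases and E2F factors tested, 10 were lower on each scale. CDC25A, the phosphatase that activates CDK2, went from 72.9, 72.7 and 77.9 CPM to 22.9, 16.7 and 15.3 CPM (log2 fold change -1.98, limma adjusted p = 4.5e-13), CDK2 kept 25.2% and CDK4 39.6% of its siCtrl level as deposited. CCND1, cyclin D1, was the member not called as deposited: it was at 289, 316 and 308 CPM in siCtrl and 315, 278 and 210 CPM in the combined knockdown, overlapping ranges (log2 fold change -0.20, limma adjusted p = 0.16), and it was called higher after rescaling (0.16, limma adjusted p = 0.031), a call lost without siCtrl replicate 1, combined replicate 1 or combined replicate 2. Of 26 genes of homologous recombination and the Fanconi pathway, 25 were lower on each scale and 1 was higher after rescaling. EXO1, the end-resecting nuclease, went from 94.4, 94.6 and 95.6 CPM to 25.7, 21.7 and 18.6 CPM (log2 fold change -2.07, limma adjusted p = 6.3e-14), and BRCA1 from 172, 166 and 151 CPM to 46.8, 41.7 and 37.8 CPM (-1.93, limma adjusted p = 1.4e-13). CDK inhibitors did not move as a group. Of 9 tested inhibitors and pocket proteins, 4 were lower and 2 higher as deposited, and 3 lower and 4 higher after rescaling. CDKN1C (p57) rose from 4.13, 4.11 and 4.46 CPM to 13.5, 10.8 and 8.31 CPM and CDKN2D (p19) from 3.06, 3.17 and 3.12 CPM to 9.66, 7.46 and 6.19 CPM, while CDKN1A (p21) was at 13, 13.2 and 12.4 CPM against 14.5, 9.54 and 7.09 CPM and was not called on either scale (limma adjusted p = 0.057 and 0.94).

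Energy and lipid metabolism genes were split. Of 19 glycolytic genes, 15 were lower and 4 higher as deposited, and 13 lower and 4 higher after rescaling, where leaving out combined replicate 1 gave 2 higher as deposited. LDHA, lactate dehydrogenase A, went from 628, 581 and 645 CPM to 142, 126 and 98.4 CPM, with a log2 fold change of -2.35 ± 0.12 (SE, adjusted p = 3.2e-14 by limma), and ENO1 from 742, 709 and 752 CPM to 249, 197 and 150 CPM (-1.91, limma adjusted p = 6.1e-12). ENO2, the neuronal enolase, moved the opposite way, from 33.3, 33.8 and 30.9 CPM to 84.5, 77.9 and 52.1 CPM (1.08, limma adjusted p = 2.1e-07), and HK1 also rose. Nuclear genes of oxidative phosphorylation followed the shift of the whole table: of 52, 31 were lower and 1 higher as deposited, against 13 and 11 after rescaling (7 higher without siCtrl replicate 2), with medians of -0.36 and -0.01. Of 24 genes of cholesterol and fatty acid synthesis, 23 were lower as deposited and 19 after rescaling. SQLE, the squalene epoxidase of cholesterol synthesis, went from 206, 205 and 210 CPM to 76.9, 66.8 and 56.1 CPM (-1.63, limma adjusted p = 4.7e-12), while SCD, the stearoyl-CoA desaturase, kept 33.2% of the siCtrl level as deposited. Of 31 proteasome subunits, 30 were lower as deposited and 22 after rescaling, and of 45 splicing factors 42 and 40 were lower. PTBP1, a splicing repressor whose level is known to drop as neurons form, went from 216, 222 and 213 CPM to 81.5, 65.2 and 51.7 CPM (-1.72, limma adjusted p = 1.4e-11).

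**Figure D3:**
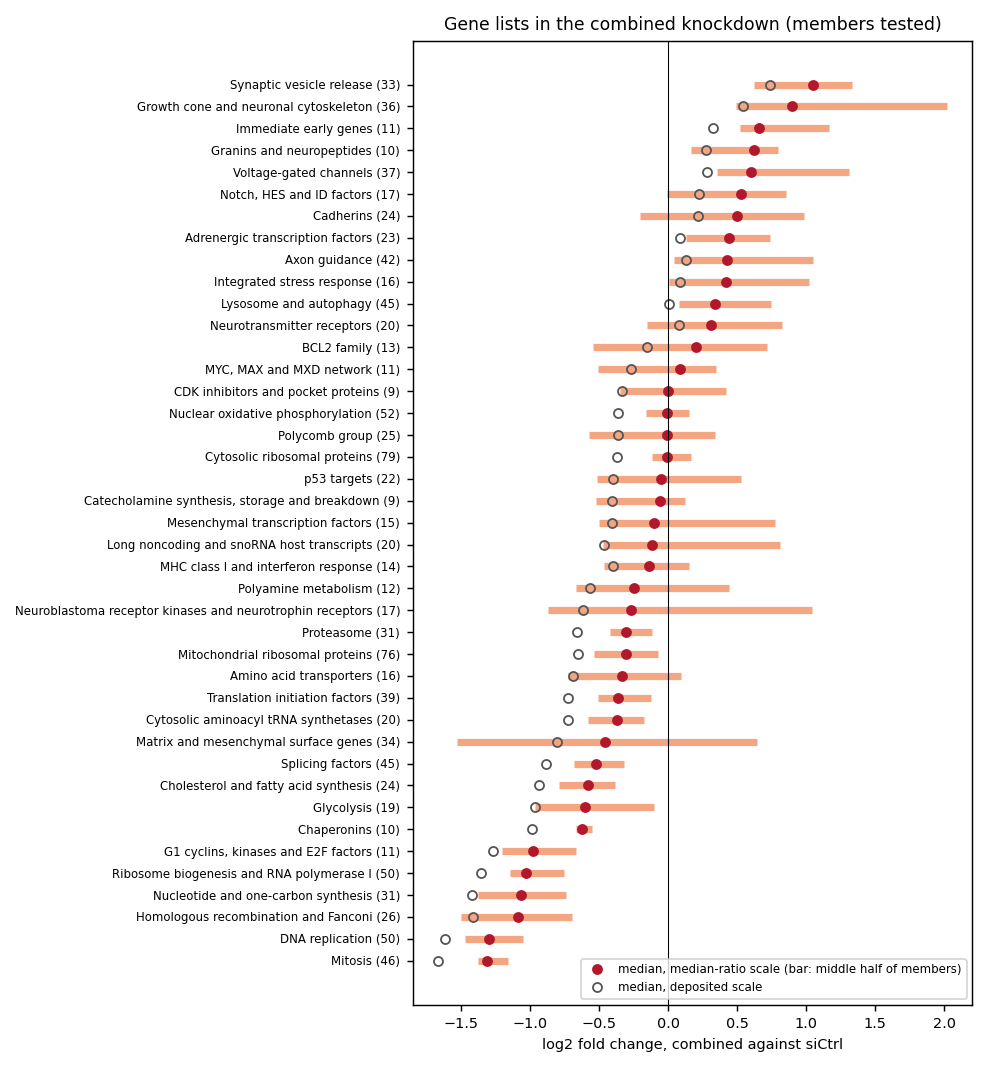
Median log2 fold change (combined against siCtrl, horizontal axis) of each gene list on the median-ratio scale (filled) and the deposited scale (open); orange bars span the interquartile range of members after rescaling, and the number of members tested is in brackets. Division, nucleotide and ribosome biogenesis lists sit at -1.67 to -1.36 as deposited, ribosomal proteins and oxidative phosphorylation at -0.01 after rescaling, and the growth cone and synaptic lists at 0.54 to 1.05 over the scales.

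By log2 fold change of CPM + 1, the 3 largest rises on both scales were growth cone genes, among genes with a mean of at least 5 CPM. For some genes under 1 CPM in siCtrl the ratio of mean CPM was larger, as for SEMA3C (0.174 to 8.4 CPM). Of 36 growth cone and neuronal cytoskeleton genes tested, 24 were higher as deposited and 31 after rescaling, against 3 lower on each scale, with medians of 0.54 and 0.90. STMN2, a microtubule regulator of axon growth, went from 4.07, 2.78 and 5.14 CPM to 198, 151 and 129 CPM, with a log2 fold change of 5.01 ± 0.15 (SE, adjusted p = 1.3e-18 by limma) and a 39.8-fold difference in mean CPM. GAP43, the growth-associated protein of axon tips, went from 7.38, 6.94 and 7.42 CPM to 222, 169 and 143 CPM (4.42 ± 0.13, limma adjusted p = 1.1e-18), and STMN4 from 1.38, 1.26 and 1.27 CPM to 48, 35.9 and 27.5 CPM (4.01 ± 0.14, limma adjusted p = 2.3e-17). For these 3 genes the lowest combined library exceeded the highest siCtrl library by a wide margin. MAPT, the microtubule protein tau, rose 5.38-fold. Not every gene of the list followed: NEFH, the heavy neurofilament chain, fell from 66.1, 71.7 and 63.5 CPM to 31.7, 27.9 and 21.8 CPM (-1.29, limma adjusted p = 6.8e-10), and GPM6B kept 59.5% as deposited and 75.8% after rescaling.

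Most synaptic release genes were also called higher. Of 33 tested, 23 were higher as deposited and 27 after rescaling, against 3 and 2 lower (5 lower as deposited without combined replicate 1, and 1 lower after rescaling without any 1 siCtrl library or without combined replicate 3). SYT11, an atypical synaptotagmin, went from 66.6, 68.5 and 68.4 CPM to 412, 322 and 221 CPM (log2 fold change 2.17 ± 0.15, limma adjusted p = 2.7e-12). CADPS, which primes dense-core vesicles, went from 2.64, 2.15 and 2.58 CPM to 16.9, 14.4 and 12 CPM. RAB3B rose 3.02-fold. SYN2, a synapsin, fell from 59.5, 62.3 and 50.5 CPM to 38.1, 37.5 and 29.9 CPM (-0.70, limma adjusted p = 1.1e-05), and CPLX2, a complexin, fell by 0.58 on the log2 scale (limma adjusted p = 0.0015; 0.042 after rescaling). Among 37 voltage-gated channels, 18 were higher and 6 lower as deposited, and 29 higher and 5 lower after rescaling (3 lower without siCtrl replicate 1 or 2 or combined replicate 1). The sodium channel SCN9A went from 1.97, 2.7 and 1.84 CPM to 30.1, 33.1 and 25.9 CPM (3.28, limma adjusted p = 3.4e-17). KCNJ6, a G-protein-gated potassium channel, went from 0.743, 0.616 and 0.837 CPM to 10.1, 11.6 and 9.24 CPM. KCNQ5 stood against them, from 15, 15.1 and 13.1 CPM to 0.795, 0.57 and 0.39 CPM (-3.28, limma adjusted p = 1.1e-15).

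Receptors, guidance molecules and adhesion genes changed in both directions. Of 20 neurotransmitter receptors tested, 7 were higher and 7 lower as deposited, and 13 higher and 4 lower after rescaling. GABBR1, a GABA-B receptor subunit, rose from 3.3, 2.99 and 2.82 CPM to 12.5, 11.8 and 10.4 CPM, whereas OPRK1, the kappa opioid receptor, fell from 16.4, 15.8 and 17.1 CPM to 1.11, 1.43 and 0.78 CPM and CHRM2, the M2 muscarinic receptor, from 9.58, 10.8 and 8.7 CPM to 2.6, 2.82 and 1.93 CPM. Of 42 axon guidance genes, 18 were higher and 12 lower as deposited, and 27 and 9 after rescaling. The semaphorin SEMA6C rose 4.86-fold and the semaphorin receptors PLXNA3 and PLXNA2 rose 3.44-fold and 3.11-fold, while PLXND1, also a plexin, kept 26.6% and the ligand SLIT1 35.6% of the siCtrl level as deposited. Of 24 cadherins and relatives, 11 were higher and 7 lower as deposited, and 14 and 6 after rescaling. CLSTN2, a synaptic calsyntenin, went from 4.65, 6.6 and 5.75 CPM to 29.2, 29 and 19.5 CPM (2.00, limma adjusted p = 2.2e-12). CDH11, a mesenchymal cadherin, went the other way, from 32.9, 35.9 and 34.1 CPM to 7.87, 5.96 and 4.02 CPM (-2.38, limma adjusted p = 3.3e-13).

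Within the adrenergic transcription factors, members of the same circuit parted. Of 23 tested, 8 were higher and 5 lower as deposited, and 17 higher and 4 lower after rescaling. ISL1 rose from 20.4, 21.2 and 22.2 CPM to 72.3, 62.4 and 57.8 CPM (log2 fold change 1.54, limma adjusted p = 4.5e-12) and ZNF536, a neural zinc finger factor, from 7.65, 8.86 and 8.42 CPM to 64.4, 58.9 and 44.6 CPM (2.60, limma adjusted p = 2.7e-15). HAND1, the paralog of HAND2, fell from 19.2, 18 and 18 CPM to 3.55, 2.38 and 3.29 CPM (-2.26, limma adjusted p = 2.3e-14), and PHOX2A from 72.3, 62.4 and 70.8 CPM to 34.4, 26.3 and 20.5 CPM. GATA3 was not called as deposited (-0.08, limma adjusted p = 0.63), and its rescaled value of 0.27 (limma adjusted p = 0.045) had the opposite sign, a call lost without siCtrl replicate 1 or 3 or combined replicate 2 or 3.

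Catecholamine genes did not rise together with the neuronal structure genes, whereas more granin and neuropeptide genes were higher than lower. Of 9 catecholamine genes tested, 5 were lower and 2 higher as deposited (1 higher without siCtrl replicate 1 or 2 or combined replicate 1 or 2), and 3 lower and 2 higher after rescaling. TH, under the filter for testing, had a mean of 0.12 CPM in siCtrl and 1.58 CPM in the combined knockdown, and DBH of 2.65 and 0.942 CPM. GCH1, which makes the tetrahydrobiopterin cofactor, rose from 17.4, 16.4 and 21.3 CPM to 35.8, 29.4 and 24.5 CPM (log2 fold change 0.66, limma adjusted p = 5.6e-05). QDPR, which recycles that cofactor, fell from 21.6, 21.2 and 19.9 CPM to 12.7, 11.2 and 8.58 CPM (-0.90, limma adjusted p = 4.2e-07), and MAOA, which breaks catecholamines down, from 26, 26 and 24.4 CPM to 18.9, 13.9 and 9.43 CPM (-0.86, limma adjusted p = 1.8e-05). Of 10 granins and neuropeptide genes, 5 were higher and 1 lower as deposited (3 higher without combined replicate 1 or 2, and 2 lower without combined replicate 1), and 7 higher and 1 lower after rescaling. SCG2, secretogranin II, rose from 43.4, 43 and 42.3 CPM to 283, 222 and 157 CPM (2.30, limma adjusted p = 5.9e-13), and VGF fell from 11.3, 11 and 11.4 CPM to 9.23, 7.38 and 4.7 CPM (-0.63, limma adjusted p = 0.00036).

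Mesenchymal and matrix genes held large changes each way. Of 34 matrix and mesenchymal surface genes, 21 were lower and 9 higher as deposited, and 18 and 11 after rescaling, with medians of -0.81 and -0.46. SULF2, a sulfatase that edits heparan sulfate, went from 86.4, 90.2 and 75.4 CPM to 9.9, 7.46 and 3.68 CPM (log2 fold change -3.49 ± 0.19, limma adjusted p = 4.9e-14). FBN2 and VCAN, a fibrillin and a matrix proteoglycan, kept 12.9% and 20.1% of the siCtrl level as deposited. TNC, tenascin C, rose from 6.75, 7.01 and 6.6 CPM to 67.1, 62 and 38.1 CPM (2.82 ± 0.14, limma adjusted p = 1.1e-14) and the laminin chain LAMA5 3.48-fold. The summed fibroblast markers given above were lower in the same libraries, and their part in these values was not tested. Of 15 mesenchymal transcription factors tested, 8 were lower and 4 higher as deposited, and 6 and 6 after rescaling. JUN, an AP-1 factor, rose from 19.1, 17.6 and 19.5 CPM to 121, 93.8 and 63.3 CPM (2.20, limma adjusted p = 2.3e-12), and BNC2, a zinc finger factor, fell from 9.55, 10.2 and 7.58 CPM to 1.06, 0.881 and 0.731 CPM (-2.41, limma adjusted p = 1.9e-13).

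Stress response genes rose in part. Of 16 genes of the integrated stress response tested, 6 were higher and 5 lower as deposited, and 11 higher and 1 lower after rescaling (none lower without siCtrl replicate 1 or 2 or combined replicate 1 or 3). DDIT3 (CHOP), a stress-induced transcription factor, rose from 2.81, 2.58 and 3.14 CPM to 17.3, 14.8 and 14.2 CPM (log2 fold change 2.10, limma adjusted p = 3.6e-14), ATF3 from 2.45, 2.65 and 2.49 CPM to 13.5, 10.3 and 8.21 CPM (1.70, limma adjusted p = 3.3e-11), and PPP1R15A, the phosphatase subunit that ends the response, 2.93-fold. ATF4 itself, whose control is largely translational, was lower as deposited (-0.46, limma adjusted p = 0.0036) and not called after rescaling (-0.10, limma adjusted p = 0.31). Of 22 p53 targets, 13 were lower and 4 higher as deposited (7 higher without combined replicate 3), and 10 and 8 after rescaling. Over all tested genes 50.1% were lower and 17.4% higher as deposited, and 33% and 37.7% after rescaling. Neither the p53 list nor the BCL2 family was tested against these shares. The nuclease AEN kept 25.1% and the death receptor TNFRSF10B 42% of the siCtrl level as deposited, while TP53INP1 and BTG2 rose 2.37-fold and 2.01-fold. Of 13 BCL2 family genes, 6 were lower and 4 higher as deposited, and 6 and 7 after rescaling, with the anti-apoptotic BCL2 falling to 48% and the pro-apoptotic BMF rising 2.49-fold. Other members went against that pattern, so pro-apoptotic and anti-apoptotic genes were each found among those that fell and those that rose. Of 11 immediate early genes, 7 were higher and 0 lower as deposited (1 lower without combined replicate 1), and 9 and 0 after rescaling.

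Lysosomal and autophagy genes moved with the scale in number but rose at the top. Of 45, 14 were higher and 10 lower as deposited (17 lower without combined replicate 1), and 29 higher and 3 lower after rescaling. MAP1LC3B, the autophagosome protein LC3B, rose from 17, 15.7 and 14.6 CPM to 57, 59.9 and 52.2 CPM (log2 fold change 1.78, limma adjusted p = 8.1e-12), WIPI1 2.57-fold and SCARB2, a lysosomal membrane protein, 1.97-fold. GUSB, beta-glucuronidase, fell from 21.5, 21.6 and 22.8 CPM to 13.5, 10.5 and 7.87 CPM (-1.01, limma adjusted p = 2.1e-07). Of 14 genes of MHC class I and the interferon response tested, 9 were lower and 2 higher as deposited, and 6 and 3 after rescaling. B2M, the light chain of MHC class I, kept 45.5% of the siCtrl level as deposited.

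Signalling and chromatin genes also split. Of 17 receptor kinase and neurotrophin receptor genes, 9 were lower and 5 higher as deposited, and 9 and 7 after rescaling. NTRK3, the neurotrophin-3 receptor, rose from 1.54, 1.76 and 1.43 CPM to 14, 13.8 and 13 CPM (log2 fold change 2.51, limma adjusted p = 1.4e-15) and ERBB4 6.03-fold, while FGFR2 and NGFR kept 21.1% and 29.8%. Of 17 Notch, HES and ID genes, 7 were higher and 5 lower as deposited, and 10 and 4 after rescaling. ID4, an inhibitor of helix-loop-helix factors, rose from 1.65, 1.3 and 1.53 CPM to 15, 14.6 and 9.85 CPM (2.48, limma adjusted p = 3.5e-14), the ligands JAG1 and DLL3 4.52-fold and 2.21-fold, and HES6, which promotes neuronal differentiation, kept 32.6%. In the network around MAX, 6 of 11 genes were lower and 2 higher as deposited, and 4 and 3 after rescaling. MXD1 and MXD4, repressors that compete for MAX, rose 2.29-fold and 1.35-fold, and MXD3 kept 38.6%. Of 25 Polycomb genes, 15 were lower and 2 higher as deposited (4 higher without combined replicate 3), and 10 and 8 after rescaling, with RBBP7 and EED at 36.5% and 38.9% of the siCtrl level. The shares over all tested genes were 50.1% lower and 17.4% higher as deposited, and 33% and 37.7% after rescaling.

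Among 20 long noncoding and snoRNA host transcripts, 13 were lower and 7 higher as deposited, and 8 and 7 after rescaling. MEG3, an imprinted RNA, rose from 5.2, 4.47 and 4.51 CPM to 56.9, 56.4 and 78.5 CPM (log2 fold change 3.49 ± 0.15, limma adjusted p = 1.4e-15), and MIAT from 15.9, 19.9 and 18.2 CPM to 114, 107 and 129 CPM (2.63, limma adjusted p = 4.7e-14). MALAT1, a nuclear RNA, rose from 498, 690 and 543 CPM to 1254, 1758 and 1519 CPM (1.39, limma adjusted p = 1.4e-08). Combined replicate 3, which had the lowest share of reads in listed genes, had the highest MEG3 and MIAT values. RNR2, a ribosomal RNA encoded by mitochondrial DNA, was at 495, 641 and 652 CPM in siCtrl and at 1359, 1706 and 1958 CPM in the combined knockdown. The part of these differences in the results on coding genes was not tested.

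Among genes with a mean of at least 5 CPM over the 12 samples, those of largest log2 fold change came from several programmes. After STMN2, GAP43 and STMN4, the rises were led by RPRM, a G2 arrest gene, at 1.54, 1.96 and 2.25 CPM in siCtrl and 48.6, 42.2 and 40.2 CPM in the combined knockdown (log2 fold change 3.94, limma adjusted p = 1.7e-18). They went on with the adhesion receptor ADGRG1 (11.4-fold), the synaptic adhesion protein SDK2 (10.6-fold), the neuronal helix-loop-helix factor NHLH1 (9.33-fold), the natriuretic peptide NPPA (15-fold), the retinoid receptor RXRG (9.32-fold) and the factor CREB5 (11.9-fold). The largest fall was VEGFD, a lymphangiogenic growth factor, from 60.4, 58.6 and 67.9 CPM to 0.812, 0.756 and 0.629 CPM, 1.18% of the siCtrl mean (-5.19 ± 0.16, limma adjusted p = 1.3e-18). Beside the genes named above, the falls held the cholecystokinin receptor CCKAR (9.71% of siCtrl), the hedgehog co-receptor CDON (11.2%), the salvage enzyme MTAP (11.3%), the mitochondrial adenylate kinase AK4 (11.8%), the GABA-A receptor subunit GABRA5 (9.08%) and PCOLCE, an enhancer of procollagen processing (13.7%). For all 24 genes of this set the 3 combined libraries lay on 1 side of the 3 siCtrl libraries on both scales, which the rule for naming them required. KCNQ5, SDK2, SCN9A, NPPA, PCOLCE and GABRA5 overlap a transcript of the table on the other strand, as do ISL1, MAPT, VCAN, LAMA5, NTRK3, NGFR, TYMS, MTHFD1, DDIT3, TNFRSF10B, CDKN1A, CDK4, KIF23, AMD1, ENO1, EIF4A2, RPL35, MXD3, WIPI1, CHRM2, SYN2, CLSTN2, SLIT1 and MALAT1 among the other genes named. NHLH1, RXRG, SYT11, BTG2, SEMA6C, JUN, ORC1, RAB3B and PLXNA2 overlap the listed span of FAM72C, MIR5096 or SRGAP2D on the other strand. VEGFD overlaps the read-through transcript PIR-FIGF on its own strand, as BUB1B, HSPE1 and SLIT1 overlap BUB1B-PAK6, HSPE1-MOB4 and ARHGAP19-SLIT1. The counts of these genes are uncertain to that extent.

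**Figure D4:**
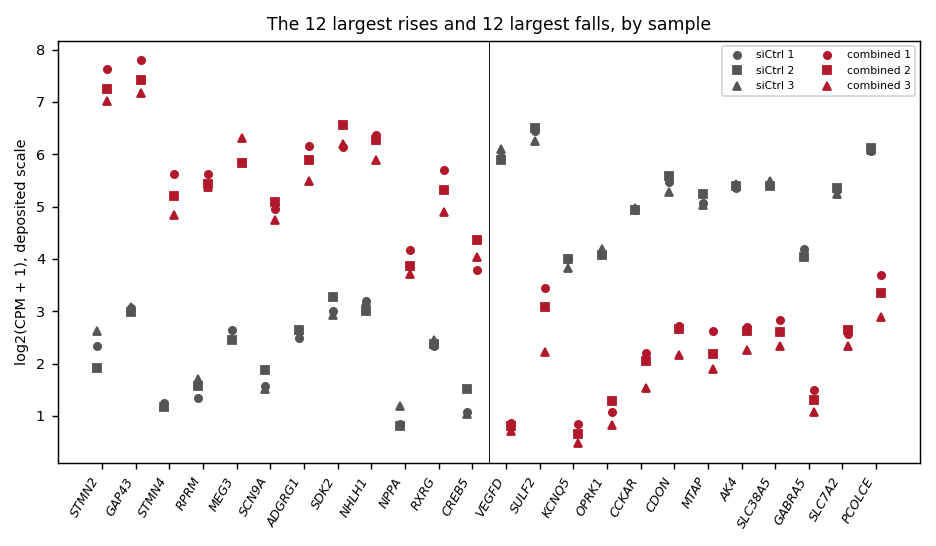
Deposited expression, log2(CPM + 1), of the 12 genes of largest rise (left of the line) and the 12 of largest fall (right) in each siCtrl (grey) and combined (red) library. Genes were ranked among those with a mean of at least 5 CPM. Shapes are replicate numbers. STMN2 lies at 2.78 to 5.14 CPM in siCtrl and 129 to 198 CPM in the combined knockdown, and VEGFD at 58.6 to 67.9 CPM and 0.629 to 0.812 CPM.

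The combined knockdown was also set directly against each single knockdown, in the same fit. Against siMYCN, 3806 rescaled genes exceeded the single knockdown (30%) and 3378 lay under it (26.6%), while on the deposited values 1131 did the first (8.92%) and 6340 the second (50%). Against siHAND2 the rescaled counts were 3305 above (26.1%) and 2995 under (23.6%), and the deposited ones 1109 (8.75%) and 3995 (31.5%). On both scales 1925 genes were lower in the combined knockdown than in siCtrl and in each single knockdown, and 486 were higher than in all 3. These contrasts share the combined libraries, and the 3 knockdowns share the siCtrl libraries, so the following values are set side by side and not as independent evidence. Differences of single genes from a single knockdown are given on the rescaled values, and except for MYCN and HAND2 above and RPS2 their calls were the same as deposited.

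The division lists were lower than in either single knockdown. After rescaling, 48 of 50 replication genes were lower than in siMYCN and 47 than in siHAND2, and 45 of 46 mitosis genes were lower than in each. The list medians against siCtrl were -0.33 (siMYCN), -0.70 (siHAND2) and -1.30 (combined) for replication and -0.14, -0.70 and -1.31 for mitosis. ORC1 was lower by a log2 difference of -1.53 than in siMYCN (limma adjusted p = 7.6e-11) and of -1.04 than in siHAND2 (limma adjusted p = 2.0e-08). Ribosome biogenesis medians were -0.70, -0.28 and -1.03, with 32 of 50 genes lower than in siMYCN and 49 lower than in siHAND2. Of 31 nucleotide synthesis genes, 29 were lower than in siHAND2 and 25 lower than in siMYCN, and MTHFD1 differed by -1.16 from siMYCN (limma adjusted p = 2.8e-09) and by -1.07 from siHAND2 (limma adjusted p = 4.5e-08).

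Cytosolic ribosomal proteins did the reverse against siMYCN. After rescaling, 76 of 79 were higher in the combined knockdown than in siMYCN and none lower, while 26 were lower than in siHAND2 and none higher, with medians against siCtrl of -0.49, 0.13 and -0.01. As deposited, 21 were higher than in siMYCN and 48 lower than in siHAND2. For RPS2 the difference from siMYCN changed sign with the scale, at 0.16 after rescaling (limma adjusted p = 0.046) and -0.19 as deposited, where it was not called (limma adjusted p = 0.18). It was lower than in siHAND2 on both scales (-0.64 after rescaling, limma adjusted p = 2.8e-06).

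After rescaling, the growth cone and synaptic medians lay above those of both single knockdowns, whereas as deposited the growth cone median lay under that of siMYCN. Of 36 growth cone genes, 24 were higher than in siMYCN and 24 higher than in siHAND2 after rescaling (13 and 15 as deposited), while 4 and 1 were lower (5 and 2 as deposited). The medians against siCtrl were 0.68 (siMYCN), 0.59 (siHAND2) and 0.90 (combined) after rescaling and 0.67, 0.43 and 0.54 as deposited. Of 33 synaptic release genes, 24 and 19 were higher (11 and 9 as deposited), while 3 and 0 were lower (6 and 2 as deposited), with medians of 0.41, 0.65 and 1.05 after rescaling and 0.40, 0.50 and 0.74 as deposited. GAP43 exceeded siMYCN by 2.97 (limma adjusted p = 8.8e-12) and siHAND2 by 1.65 (limma adjusted p = 1.6e-08), and STMN2 by 1.29 (limma adjusted p = 3.6e-06) and 2.72 (limma adjusted p = 2.0e-08) on the log2 scale after rescaling. DDIT3 exceeded siMYCN by 1.91 (limma adjusted p = 4.8e-10) and siHAND2 by 1.73 (limma adjusted p = 1.7e-08).

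Other genes stood apart from siMYCN but close to siHAND2. VEGFD was lower than in siMYCN (log2 difference -3.95, limma adjusted p = 4.0e-10), whereas its difference from siHAND2 was 0.27 and did not pass the test (limma adjusted p = 0.23). The same held for OPRK1 (-2.99 from siMYCN, -0.18 from siHAND2, limma adjusted p = 0.16), for CDH11 (-1.97 and -0.13, limma adjusted p = 0.31), for HAND1 (-2.52 and 0.17, limma adjusted p = 0.22) and for ERBB4, a gene that rose (2.61 and 0.15, limma adjusted p = 0.38). PABPC1 was the opposite case, at -0.02 from siMYCN (limma adjusted p = 0.93) and -1.13 from siHAND2 (limma adjusted p = 2.6e-05). A p that misses the threshold does not show that the levels were equal. PHOX2A lay between the single knockdowns, with a log2 difference of -1.74 from siMYCN (limma adjusted p = 4.7e-10) and of 0.89 from siHAND2 (limma adjusted p = 9.9e-07).

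**Figure D5:**
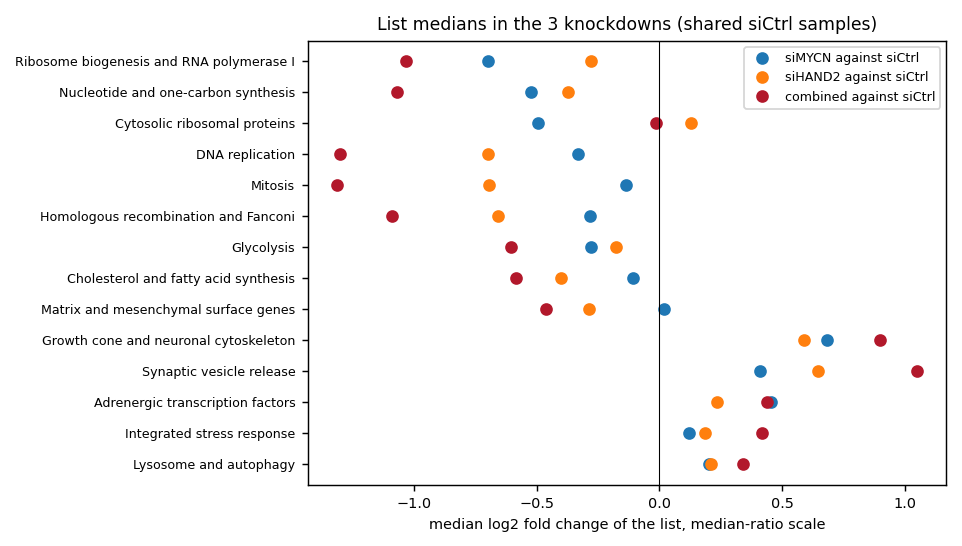
Median log2 fold change against siCtrl after median-ratio rescaling (horizontal axis) of 14 gene lists in siMYCN (blue), siHAND2 (orange) and the combined knockdown (red), 3 libraries per group with the same siCtrl libraries in each comparison. For mitosis the medians are -0.14, -0.70 and -1.31, for cytosolic ribosomal proteins -0.49, 0.13 and -0.01, and for synaptic vesicle release 0.41, 0.65 and 1.05.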

How the data were processed

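RNA was measured in 12 libraries of IMR32 cells, 4 groups of 3. The submitters' processing notes name STAR 2.5.1, a read aligner, Partek and the build hg19 (GRCh37), without their settings. The counter, annotation and strandedness are not given in the sources used here. The deposited table holds CPM, to which the authors had added 0.0001, judging by its lowest value. The CPM of listed genes account for 44.3 to 65.8% of each library's reads. Depth was estimated from the CPM worth of 1 read (31.6 to 64.2 M reads). Only 90.7 to 92.1% of values under 20 reads came out whole (tolerance 0.1 reads), so the values were not treated as counts.

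Genes with a mean of at least 1 CPM were tested on log2(CPM + 1), a scale that understates the changes of low genes, with limma 3.58.1 (trend, R 4.3.3) over all 4 groups (8 residual degrees of freedom), and Benjamini-Hochberg adjustment over all 12680 genes. The same fit was run after median-ratio rescaling. Replicates differed by more than sampling noise. Combined replicates correlated with each other at 0.988 to 0.9927 and siCtrl replicates at 0.9959 to 0.9963 (log2 values as deposited), while the fit used a spread pooled over groups. The fit was also run on simulated data in which few genes changed, as many up as down. Most genes were called in the real libraries, so that run cannot show how well rescaling works for them. Of the tested genes, 10121 matched a RefSeq promoter on the same chromosome by symbol or, where the symbol is not a current RefSeq one, by a single synonym. Named genes were both targets, markers, the 12 largest rises and falls called alike on both scales with groups apart, and from each list up to 4 called members of largest change, up to 2 against its majority and all members of short lists. Genes chosen by size of change had a mean of at least 5 CPM over the 12 samples and were ranked on the deposited log2(CPM + 1) values. Some genes that the rule names are not reported here. The comparison, lists and rule were chosen with earlier results of these data known. Alternatives covered scale, pseudocount, filter, samples in the fit, trend, replicate block, threshold and leaving out each library.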

Additional observations from a re-analysis of the deposited data

How the results depend on the processing

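The total of 8551 called genes moved by over 1.5 times only with a minimum absolute log2 fold change of 1 (2110 as deposited, 1727 rescaled), among the settings run. The split moved with the scale: 4776 higher and 4186 lower with median ratios, 4691 and 4227 with each sample scaled to its sum over listed genes, and 4904 higher with median ratios and a replicate block. With the fold minimum, 528 were higher and 1582 lower as deposited, and 949 and 778 after rescaling. A fit of only the siCtrl and combined samples gave 7646 calls as deposited, 1942 higher and 5704 lower. Of genes called, 53.3% were higher with median ratios and 26.1% with the block as deposited. Leaving out 1 library gave totals of 7833 to 9340, with 1918 to 2831 higher and 5786 to 7341 lower (rescaled total: 8388 to 9006). Rescaled, 4441, 4567 and 4517 were higher and 3947, 3998 and 3909 lower without siCtrl replicates 1, 2 and 3, and 4849, 4545 and 4578 higher and 4157, 3970 and 4132 lower without combined replicates 1, 2 and 3. The combined knockdown differed from siMYCN in 6612 to 8960 genes and from siHAND2 in 4353 to 6962, and its share of reads in listed genes from siCtrl by -17.2 to -10.2 percentage points. Without combined replicate 3, 7882 of the calls were kept in direction.

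The replicate number as a block gave 8951 calls (2336 higher, 6615 lower), including all 8551, and 8069 against siMYCN and 5839 against siHAND2. Deviations of same-numbered siCtrl and combined samples correlated at -0.083, 0.407 and 0.0752, in replicate order. Combined replicate 1 did not correlate best with its own number (0.262 with siCtrl replicate 3), whereas each other combined replicate did. These values cannot decide whether same-numbered samples share more than a number, since they point different ways and the labels do not say.

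Counted as pairs of a named gene and a setting, 2765 kept direction and side of the threshold, 17 lost the call, 13 gained one and 10 reversed. All reversals came with a change of scale. CCND1 reversed to 0.16 with median ratios and to 0.16 with median ratios and the block. With median ratios it was 0.18, 0.17 and 0.21 without siCtrl replicate 2, siCtrl replicate 3 and combined replicate 3. GATA3 reversed to 0.27 with median ratios, 0.26 with sum scaling and 0.27 with median ratios and the block. With median ratios it was 0.32 and 0.34 without siCtrl replicate 2 and combined replicate 1. The cause of the other moves was not tested. Values at or under 3 reads per library (0.0468 to 0.0826 CPM in these 6) limit what can be read of the lowest genes.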

Other observations

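Calls were counted by transcript class, with no test between classes. Of 455 long noncoding transcripts tested, 159 were higher (34.9%) and 99 lower (21.8%) as deposited, against 1931 (16.4%) and 6175 (52.4%) of 11792 protein-coding genes. After rescaling the shares were 57.6% higher and 9.67% lower for long noncoding transcripts and 36.4% and 34.8% for protein-coding genes, with median log2 fold changes of 0.35 and 0.02. These transcripts were measured in the same libraries in which fewer reads fell in listed genes.

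Some genes passed between a mean of at least 5 CPM and a mean under 1 CPM, and those named here were chosen after their values were seen. Means passed from at least 5 CPM in siCtrl to under 1 CPM in the combined knockdown for 22 genes, among them BDNF, a neurotrophin (6.32 to 0.867 CPM), CD44, a hyaluronan receptor of mesenchymal cells (6.26 to 0.973 CPM), COL1A1, a fibrillar collagen (7.9 to 0.781 CPM), and SLC1A3, a glutamate transporter typical of glia (8.46 to 0.589 CPM). The reverse, from under 1 to at least 5 CPM, held for 26 genes, among them RELN, the secreted guidance protein reelin (0.305 to 7.35 CPM), SEMA3C, a semaphorin (0.174 to 8.4 CPM), and the synaptic vesicle proteins SV2B (0.282 to 6.07 CPM) and SYNGR3 (0.881 to 9.84 CPM). TH, whose mean was under the filter for testing, stood at 0.12 ± 0.0775 CPM in siCtrl and 1.58 ± 0.437 CPM in the combined knockdown (SD, n = 3 each), while DBH was at 2.65 ± 0.368 and 0.942 ± 0.328 CPM.

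DDX1 and NBAS, neighbours of MYCN on chromosome 2 that are often amplified with it, were among the 5 most abundant listed genes of siCtrl and were chosen after their values were seen. DDX1 was at a mean of 8461 CPM in siCtrl and 5899 CPM in the combined knockdown, with a log2 fold change of -0.55 (limma adjusted p = 0.0013) as deposited and -0.19, not called, after rescaling. NBAS was at 3980 and 2798 CPM, -0.53 (limma adjusted p = 0.00096) as deposited and -0.17, not called, after rescaling. MYCN itself was lower on both scales.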
